A study of Homo sapiens with 12 samples.

Results

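The genes described here make, recycle and regulate polyamines: ODC1, SRM, SMS, SAT1, PAOX, AZIN1, AZIN2, OAZ1 and OAZ2. They were chosen by name as the polyamine pathway that MYCN is known to drive, and 9 of the 10 names had a row among the 19923 genes of the count tables. The other name, AMD1, is not analysed here. Polyadenylated RNA was sequenced from SK-N-BE2 and NGP cells, both established human neuroblastoma lines that carry extra copies of the MYCN oncogene and are labelled wild type (WT). Each line was grown for 6 days with STM2457, a small molecule that inhibits the m6A-writing enzyme METTL3, or with its solvent DMSO. The dose of STM2457 was 12 µM in SK-N-BE2 and 1 µM in NGP. Each of the 4 groups (SK-N-BE2 with DMSO, SK-N-BE2 with STM2457, NGP with DMSO, NGP with STM2457) had 3 replicates, 12 libraries in all, and both lines were grown in RPMI with fetal bovine serum. The file headers name a different folder for each line, which may or may not mark separate sequencing runs. Dose, line and any difference in run therefore cannot be told apart. The labels do not say whether replicates were separate cultures, so p-values measure only the spread between these samples, which may be technical.

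Putrescine, spermidine and spermine are small positively charged molecules that bind RNA and DNA and are needed for cell growth. Ornithine decarboxylase (ODC1) makes putrescine from ornithine, spermidine synthase (SRM) turns putrescine into spermidine, and spermine synthase (SMS) turns spermidine into spermine. Antizymes (OAZ1, OAZ2) bind ODC1 protein and send it to the proteasome, and antizyme inhibitors (AZIN1, AZIN2) are ODC1-like proteins without its activity that bind antizymes in its place. SAT1 acetylates spermidine and spermine, and PAOX oxidizes the acetylated forms, so that the chain can be run backwards or its products exported. ODC1 is a textbook target of MYC proteins, and its inhibitor difluoromethylornithine is used in neuroblastoma.

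Library totals ran from 47242379 to 58159937 reads. By gene counts, NGP DMSO replicate 1 stood furthest from its group. Its chi-square per degree of freedom on halved counts was 97 against replicate 2 and 63.5 against replicate 3. METTL3, the target of the drug, had a higher transcript level with STM2457 in both lines (log2 fold change 0.52 and 0.92, edgeR adjusted p 0.000106 and 0.000300), which says nothing of its activity. MYCN lay between 3785 and 4784 CPM (counts scaled to library size) in all 12 libraries and was not called in either line. Of the sympathoadrenal neuroblast markers, HAND2 lay between 521.7 and 998.6 CPM and GATA3 between 251 and 386.1 CPM in all libraries, and TH was at 0.1565 to 1.13 CPM in NGP. Summed CPM of leukocyte, endothelial, epithelial or Schwann cell markers was at most 11.2 in any library. The 4 fibroblast markers summed to 86.2 to 98.7 CPM with DMSO and 158.3 to 170.2 CPM with STM2457 in SK-N-BE2, and to 52.3 to 63.5 and 258.8 to 282.1 CPM in NGP. The sum rose with the drug beside every change below, but not through all 4 markers. In NGP, COL1A1 went from 29.8 to 124.2 CPM and PDGFRB from 29.6 to 140.8 CPM, group means with DMSO and STM2457. DCN was at 0.16 and 1.6 CPM there, and COL1A2 was at most 0.058 CPM in any group mean. The part of these markers in any change was not tested. In bulk RNA, fewer cells of a type and less RNA per cell cannot be told apart.

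With STM2457, ODC1 fell 2.56-fold in NGP, while SMS and OAZ2 rose there. Of the 9 genes, 8 had enough reads to test in NGP, and 6 were called at an edgeR quasi-likelihood adjusted p (Benjamini-Hochberg over all genes tested) under 0.05: ODC1, SRM, SAT1 and OAZ1 lower, SMS and OAZ2 higher. Over all 13610 genes tested in NGP, 41.7% were called (19.4% higher, 22.2% lower). The median log2 fold change of the 8 was -0.64, against -0.03 over all genes tested. In SK-N-BE2 all 9 genes were tested and 4 were called: SRM, AZIN2 and OAZ1 lower and SMS higher. There 54.7% of 14013 genes were called (26.9% higher, 27.8% lower), so 4 of 9 is near that background. The median log2 fold change was 0.02, against -0.02 over all genes tested. In each line the replicates of the groups did not overlap for 6 genes, beside 62.2% of all genes tested in SK-N-BE2 and 54.7% in NGP.

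**Figure D1:**
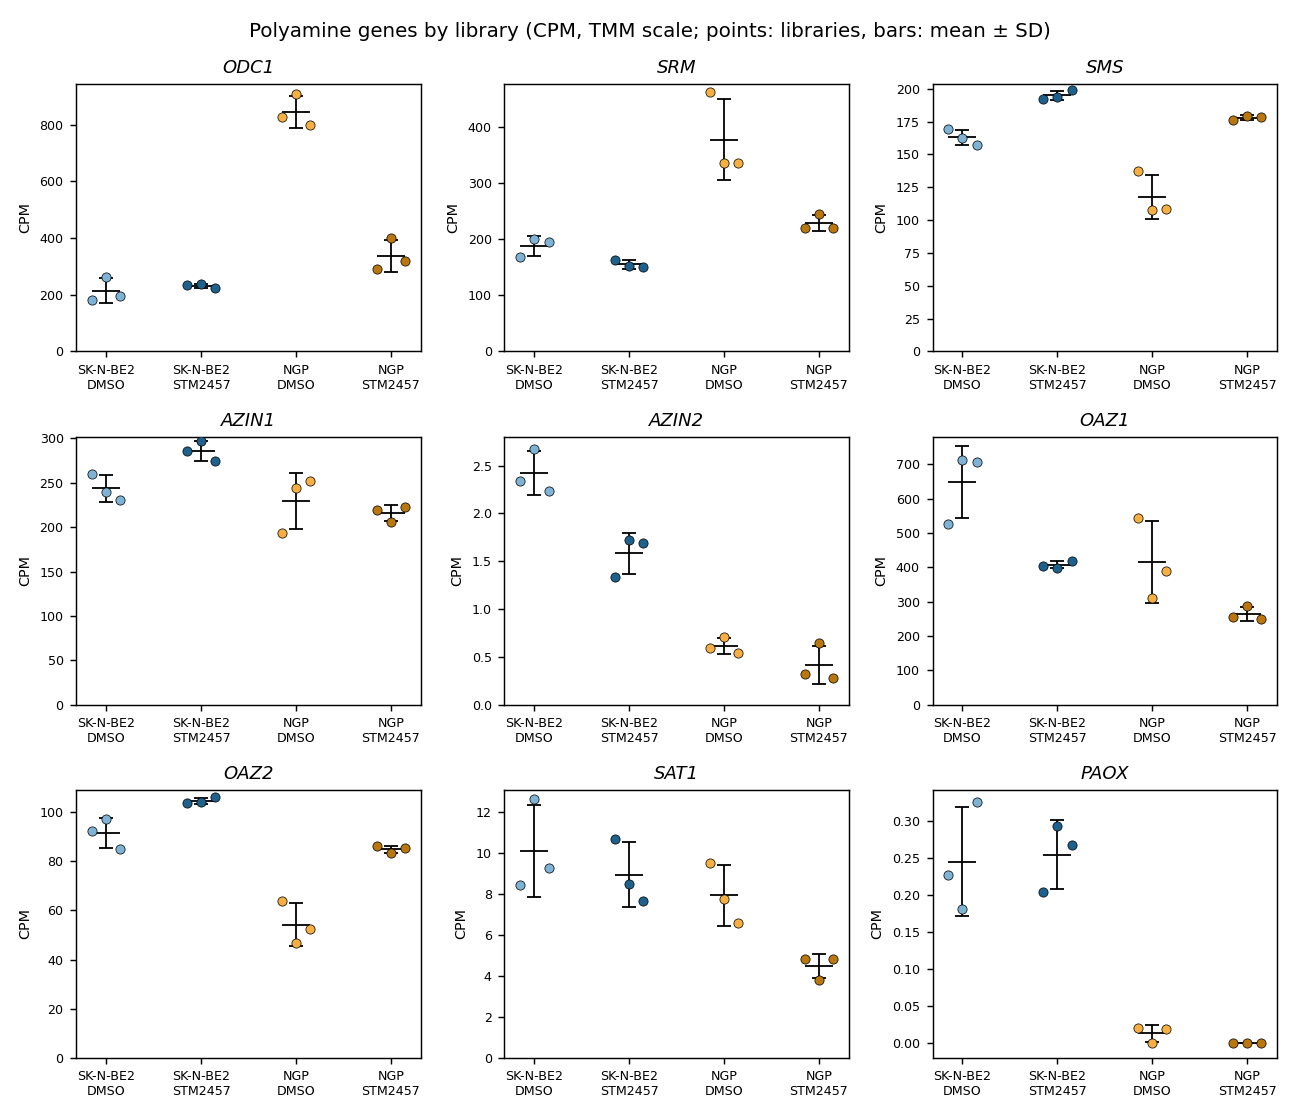
CPM (vertical axis, from 0, or from just below 0 for PAOX) of the 9 polyamine genes in the 12 libraries, by line and treatment. Points are libraries and bars are mean ± SD of 3 replicates. ODC1 falls from 798 to 908 CPM to 290.0 to 399 CPM in NGP, and its SK-N-BE2 groups overlap.

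The data on synthesis begin with ODC1 (chromosome 2, 10439968 to 10448327, minus strand, GRCh38), which carries the sequence element bound by MYC and MYCN. This element, the E-box CACGTG, reads the same on both strands. It was found in RefSeq start windows (250 bases before to 50 after an annotated start, build GRCh38.p14) of ODC1 and SRM, and not in those of SMS, SAT1, OAZ1 or OAZ2. Over 15085 genes with such a window, 11% had it in at least 1. PAOX, AZIN1 and AZIN2 had no entry. The sites are shown because the genes were chosen as targets of MYCN. Each is written 5′ to 3′ on the minus strand, which is the coding strand of both genes, with the E-box in capitals.
ODC1 site at chr2:10448024-10448053: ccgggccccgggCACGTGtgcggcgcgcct
ODC1 site at chr2:10447990-10448019: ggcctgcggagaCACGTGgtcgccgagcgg
SRM site at chr1:11060200-11060229: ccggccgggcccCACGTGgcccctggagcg
Both ODC1 sites lie in the window of an alternative start, inside intron 1 of the canonical transcript (chromosome 2, 10445265 to 10448120), and the SRM site lies upstream of its gene. A match in these letters is a description and no measure of binding.

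ODC1 had the largest called fold change with STM2457 of these genes. In NGP it measured 828, 908 and 798 CPM with DMSO and 290.0, 399 and 320.4 CPM with STM2457, replicates 1 to 3. Every treated library was far below every control, and the means were 844.7 ± 56.7 and 336.5 ± 56.3 CPM (SD, n = 3). The log2 fold change was -1.35 ± 0.13 (SE, adjusted p 0.000131 in edgeR). In SK-N-BE2 it measured 183, 264 and 195 CPM with DMSO and 234, 238 and 223 CPM with STM2457. The treated values lay inside the range of the controls, and the log2 fold change was 0.08 ± 0.12 (SE, adjusted p 0.622 in edgeR). Without SK-N-BE2 DMSO replicate 2, the highest control, it was called higher (0.26, edgeR adjusted p 0.0107), and without DMSO replicate 1 it was -0.03.

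SRM (chromosome 1, 11054584 to 11060020, minus strand), the gene that makes spermidine, was lower with STM2457 in both lines. The NGP libraries measured 461, 335 and 335 CPM with DMSO and 219.8, 244 and 219 CPM with STM2457. All treated libraries lay below all controls, a log2 fold change of -0.75 ± 0.14 (SE, adjusted p 0.00311 in edgeR). The SK-N-BE2 libraries had 168, 199.9 and 195 CPM with DMSO and 163, 151 and 149.8 CPM with STM2457. The groups were close but did not overlap, and the log2 fold change was -0.31 ± 0.09 (SE, adjusted p 0.00881 in edgeR). That call was lost without SK-N-BE2 STM2457 replicate 3 (edgeR adjusted p 0.0534) and in a joint fit of all 12 libraries (-0.28, 0.0775). SRM has 3 named pseudogenes, whose shared reads were not counted.

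SMS (chromosome X, 21940709 to 21994837, plus strand), which makes spermine, was higher with STM2457. The NGP levels were 137, 108 and 108 CPM with DMSO and 176, 179.5 and 178 CPM with STM2457. The treated libraries were nearly equal and all above the controls, with a log2 fold change of 0.57 ± 0.11 (SE, adjusted p 0.00454 in edgeR). The SK-N-BE2 levels were 169, 162 and 158 CPM with DMSO and 192, 194 and 199 CPM with STM2457. The groups were separate there too, at 0.22 ± 0.08 (SE, adjusted p 0.0256 in edgeR). This second call did not hold without SK-N-BE2 DMSO replicate 3 or any of the SK-N-BE2 STM2457 replicates (edgeR adjusted p 0.0611 to 0.109) and with upper-quartile scaling (0.0652).

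**Figure D2:**
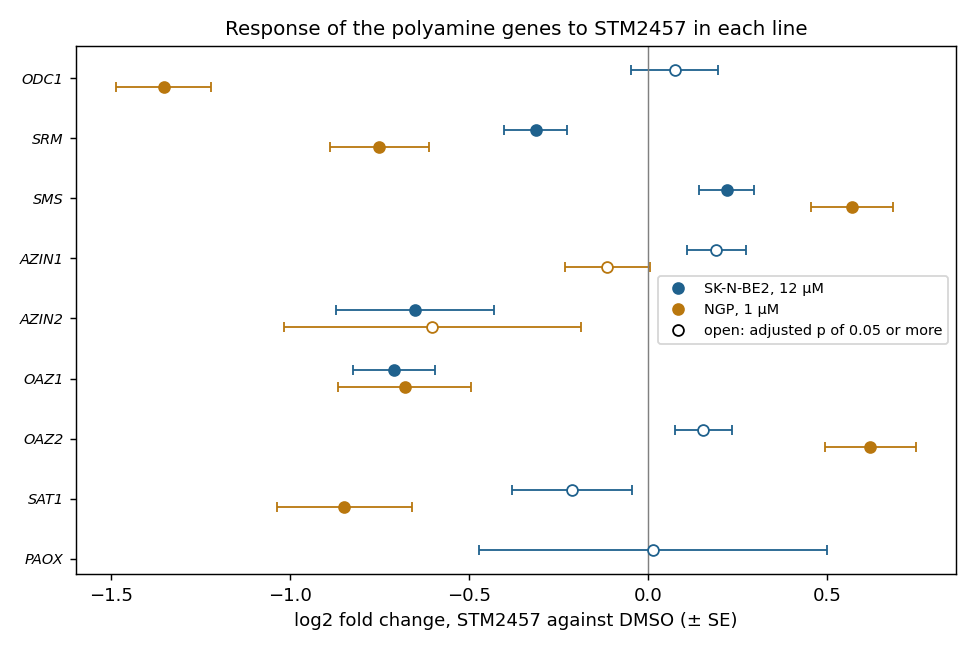
Log2 fold change with STM2457 against DMSO (horizontal axis) of the polyamine genes in SK-N-BE2 and NGP, with bars of ± 1 SE from the edgeR fits and open points where the adjusted p was 0.05 or more. ODC1 in NGP lies at -1.35, SMS lies above 0 in both lines and OAZ1 below 0 in both. PAOX had too few reads to test in NGP.

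OAZ1 and OAZ2 are the widely expressed antizymes, and their messenger RNAs are read through a programmed frameshift that polyamines promote. The frameshift sites are shown because they tie translation of the antizymes to the products of ODC1. The reading frame meets the stop codon TGA in TCCTGAT (capitals) and moves on by 1 base there. Each was read from a GENCODE 44 transcript (GRCh38) that keeps all bases, since the canonical coding transcripts leave out 1 base at this place.
OAZ1: cctcggtggtgcTCCTGATgcccctcaccc
OAZ2: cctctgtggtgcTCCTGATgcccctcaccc
These libraries measure the transcripts and not the frameshift.

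OAZ1 (chromosome 19, 2269509 to 2273490, plus strand) was lower in treated cells of both lines. In SK-N-BE2 it measured 527, 713 and 707 CPM with DMSO and 405, 398 and 419 CPM with STM2457. All treated libraries were below all controls, with a log2 fold change of -0.71 ± 0.11 (SE, adjusted p 0.000160 in edgeR). NGP controls had 545, 311 and 388 CPM of it, and treated NGP libraries 256, 286 and 248 CPM. Again the groups were separate, but DMSO replicate 1 stood well above the other controls. The log2 fold change was -0.68 ± 0.19 (SE, adjusted p 0.0183 in edgeR), and -0.44 without that library (edgeR adjusted p 0.00382). It was no longer called without NGP STM2457 replicate 1 or 3 (edgeR adjusted p 0.0673 and 0.0682).

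OAZ2 (chromosome 15, 64687573 to 64703281, minus strand) was higher with STM2457 in NGP. In NGP it measured 63.8, 46.6 and 52.3 CPM with DMSO and 86.0, 83.4 and 85.3 CPM with STM2457. The treated libraries all lay above the controls, at a log2 fold change of 0.62 ± 0.13 (SE, adjusted p 0.00481 in edgeR). In SK-N-BE2 it measured 92.3, 97.1 and 85.1 CPM with DMSO and 104, 104 and 106 CPM with STM2457. The groups did not overlap, yet the log2 fold change of 0.16 (SE 0.08) missed the threshold (edgeR adjusted p 0.118). It passed without SK-N-BE2 DMSO replicate 2 (0.21, edgeR adjusted p 0.0335).

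Of the antizyme inhibitors, AZIN1 (chromosome 8, 102826308 to 102893864, minus strand) measured 260.0, 240.1 and 231 CPM with DMSO in SK-N-BE2 and 286, 297 and 274 CPM with STM2457. The treated libraries were all higher, but the log2 fold change of 0.19 (SE 0.08) missed the threshold (edgeR adjusted p 0.0636). It passed without SK-N-BE2 DMSO replicate 1 (0.24, edgeR adjusted p 0.0192) and with DESeq2 (adjusted p 0.0389). In NGP it measured 193, 244 and 252 CPM with DMSO and 219, 206 and 223 CPM with STM2457, and the groups overlapped. The log2 fold change there was -0.11 ± 0.12 (SE, adjusted p 0.474 in edgeR), and it was called lower without NGP DMSO replicate 1 (-0.23, edgeR adjusted p 0.0116).

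AZIN2 (chromosome 1, 33081104 to 33123492, plus strand) was expressed at a low level. In SK-N-BE2 it measured 2.34, 2.68 and 2.24 CPM with DMSO and 1.33, 1.72 and 1.69 CPM with STM2457. All treated libraries were lower, at a log2 fold change of -0.65 ± 0.22 (SE, adjusted p 0.0229 in edgeR). That call was lost without SK-N-BE2 DMSO replicate 2 or STM2457 replicate 1 (edgeR adjusted p 0.0579 and 0.0982) and in a joint fit of all 12 libraries (0.0898). In NGP it measured 0.596, 0.704 and 0.544 CPM with DMSO and 0.320, 0.642 and 0.276 CPM with STM2457. The groups overlapped through STM2457 replicate 2, and the log2 fold change of -0.60 (SE 0.42) was not called (edgeR adjusted p 0.277).

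On the turnover side, SAT1 (chromosome X, 23783173 to 23786226, plus strand) was low in both lines. In NGP it measured 9.51, 7.75 and 6.55 CPM with DMSO and 4.83, 3.81 and 4.81 CPM with STM2457. Each treated library lay below each control, with a log2 fold change of -0.85 ± 0.19 (SE, adjusted p 0.00772 in edgeR). In SK-N-BE2 it measured 8.41, 12.6 and 9.23 CPM with DMSO and 10.7, 8.46 and 7.65 CPM with STM2457. Those groups overlapped, and the log2 fold change of -0.21 (SE 0.17) was not called (edgeR adjusted p 0.304). PAOX (chromosome 10, 133379261 to 133391694, plus strand) was counted in SK-N-BE2 by 39 reads with DMSO and 40 with STM2457. It had 2 reads in the NGP DMSO group and 0 with STM2457, which allows up to 3 reads or 0.0208 CPM over that group by counting error alone. Its exons share 61% of their length with another gene on the same strand, so its level is uncertain. In SK-N-BE2 its log2 fold change was 0.02 ± 0.49 (SE, adjusted p 0.981 in edgeR).

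Within a library, the amounts of these transcripts were set against each other per exon length, as a description with no test, because 3 against 3 samples cannot go below an exact permutation p of 0.1. The ratio of ODC1 to its antizyme OAZ1 was 0.427, 0.456 and 0.340 with DMSO in SK-N-BE2 and 0.711, 0.734 and 0.655 with STM2457. All treated libraries were higher, a log2 change of 0.79. In NGP the ratio was 1.87, 3.60 and 2.53 with DMSO and 1.40, 1.72 and 1.59 with STM2457. All treated libraries were lower, a log2 change of -0.72, which was -0.95 without DMSO replicate 1 and -0.48 without DMSO replicate 2. The level of ODC1 per length was above that of OAZ1 in all 6 NGP libraries and in 0 of 6 SK-N-BE2 libraries. These lengths cover all annotated exons, 2791 bases for ODC1 and 3436 for OAZ1. Their canonical GENCODE 44 transcripts have 2476 and 1148 bases, so which gene is higher in NGP depends on the length used. The changes with STM2457 do not depend on it.

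The ratio of SMS to SRM, the last steps of synthesis, was looked at after the values of both had been seen. In SK-N-BE2 it was 0.944, 0.759 and 0.756 with DMSO and 1.10, 1.20 and 1.24 with STM2457. In NGP it was 0.279, 0.301 and 0.302 with DMSO and 0.750, 0.687 and 0.761 with STM2457. The treated libraries were above the controls in both lines, 1.45-fold and 2.49-fold by the group means of the log2 ratio. The ratio of SAT1 to ODC1 was 0.0526 ± 0.00105 with DMSO and 0.0431 ± 0.00698 with STM2457 in SK-N-BE2. It was 0.0105 ± 0.00202 and 0.0154 ± 0.00416 in NGP, where the groups overlapped.

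**Figure D3:**
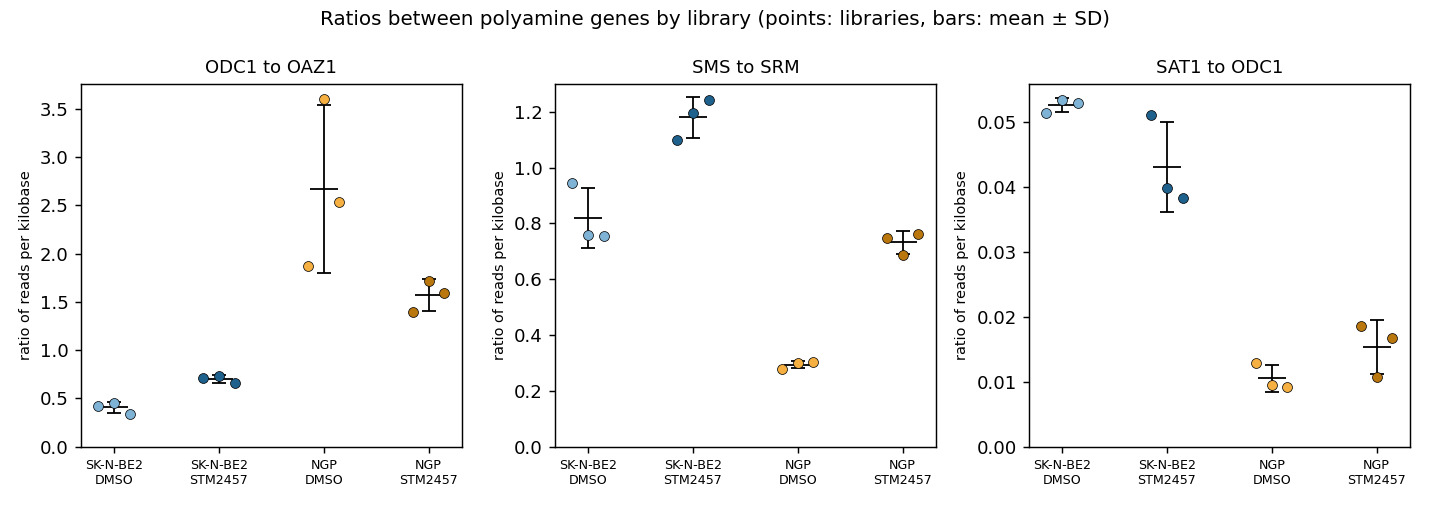
Ratios of reads per kilobase of exon in each library (vertical axes, from 0) for ODC1 to OAZ1, SMS to SRM and SAT1 to ODC1. Points are libraries and bars are mean ± SD of 3 replicates. With STM2457, ODC1 to OAZ1 moves up in SK-N-BE2 and down in NGP, and SMS to SRM moves up in both.

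Whether the lines responded differently was tested as the response in SK-N-BE2 minus that in NGP over all 12 libraries. Of the 9 genes, 2 were called, ODC1 with the more positive value in SK-N-BE2 and OAZ2 with the more positive value in NGP. Over 14731 genes tested, 30.9% were called, 17% and 13.9% in these directions. The ODC1 difference was 1.44 ± 0.20 (SE, adjusted p 0.000102 in edgeR), and it kept its call in each of the 19 alternatives run, with adjusted p up to 0.000505. OAZ2 differed by -0.45 ± 0.15 (SE, adjusted p 0.0296 in edgeR), the rise being larger in NGP. Its call was lost without SK-N-BE2 DMSO replicate 2, NGP DMSO replicate 2 or 3, any SK-N-BE2 STM2457 replicate, or NGP STM2457 replicate 1 or 3 (edgeR adjusted p up to 0.0694).

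The differences of SRM (0.45, SE 0.17), SMS (-0.34, SE 0.13) and SAT1 (0.65, SE 0.28) missed the threshold, with edgeR adjusted p of 0.0599, 0.0662 and 0.0904. SRM passed without NGP DMSO replicate 2 or 3 (edgeR adjusted p 0.0299 and 0.0397), SMS without NGP DMSO replicate 1 (0.000642) and SAT1 without SK-N-BE2 DMSO replicate 2 (0.0361). With DESeq2 both SRM and SMS passed (adjusted p 0.0496 and 0.0316), as did SRM without the filter on low counts (0.0454) and SMS with upper-quartile scaling (0.0313). AZIN1 differed by 0.32 ± 0.14 (SE, adjusted p 0.104 in edgeR), and by 0.41 without NGP DMSO replicate 1 (edgeR adjusted p 0.00512). The response of OAZ1 was of like size in the lines, with a difference of -0.02 ± 0.24 (SE, adjusted p 0.982 in edgeR), and this does not show that they act alike. AZIN2 had a difference of -0.04 ± 0.46 (SE, adjusted p 0.980 in edgeR).

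In the DMSO controls the lines already differed in 7 of the 9 genes, 5 higher and 2 lower in SK-N-BE2. Over 14731 genes tested, 71.1% were called (35.7% higher, 35.4% lower). Replicates did not overlap for 6 of the 9 and for 68.9% of all. ODC1 was 3.95-fold lower in SK-N-BE2 than in NGP (log2 difference -1.98 ± 0.14 SE, adjusted p 1.48e-08 in edgeR), and SRM was lower too (-1.01 ± 0.12 SE, adjusted p 3.69e-06 in edgeR). SMS was higher in SK-N-BE2 (0.47 ± 0.09 SE, adjusted p 0.000432 in edgeR). The antizymes were higher in SK-N-BE2 as well, OAZ1 by 0.65 ± 0.17 (SE, adjusted p 0.00315 in edgeR) with 1 overlapping library and OAZ2 by 0.76 ± 0.10 (SE, adjusted p 1.43e-05 in edgeR) with none.

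AZIN2 was higher in SK-N-BE2 too (log2 difference 1.97 ± 0.30 SE, adjusted p 3.84e-05 in edgeR). PAOX was 18.7 times as high by its pooled reads, with a binomial 95% counting interval from 4.85 to 160.1 (edgeR adjusted p 0.000699). That interval is too narrow, since a fragment can add up to 2 reads and the spread between replicates is left out. The level of PAOX is also uncertain because 61% of its exon length is shared with another gene. AZIN1 and SAT1 were not called (0.09, SE 0.10, and 0.35, SE 0.19, edgeR adjusted p 0.451 and 0.124). SAT1 was called without NGP DMSO replicate 1 (0.52, edgeR adjusted p 0.0280). MYCN itself differed by 0.16 ± 0.10 (SE, adjusted p 0.174 in edgeR), which missed the threshold.

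The order of the groups by level differed between genes. ODC1 was highest in NGP with DMSO, then in NGP with STM2457, and the SK-N-BE2 groups followed without differing beyond their spread. SRM had the same leading groups, followed by SK-N-BE2 with DMSO and then with STM2457, and no neighbours overlapped. SMS ran from SK-N-BE2 with STM2457 through NGP with STM2457 and SK-N-BE2 with DMSO down to NGP with DMSO, also without overlap between neighbours. OAZ1 was highest in SK-N-BE2 with DMSO and lowest in NGP with STM2457, and the groups between overlapped each other. SAT1 was lowest in NGP with STM2457, and its other 3 groups overlapped in order. OAZ2 was highest in SK-N-BE2 with STM2457 and lowest in NGP with DMSO, and the groups between overlapped. AZIN1 was highest in SK-N-BE2 with STM2457, and its other 3 groups overlapped in order. AZIN2 ran from SK-N-BE2 with DMSO through SK-N-BE2 with STM2457 to the NGP groups, which overlapped, and PAOX had overlapping SK-N-BE2 groups above overlapping NGP groups.

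Compared per kilobase of exon, the genes fell into tiers. In NGP with DMSO, ODC1 led at 302.6 CPM per kb, above SRM at 199, OAZ1 at 121, SMS at 58.1 and AZIN1 at 38.7. In SK-N-BE2 with DMSO, OAZ1 led at 189 CPM per kb, above SRM at 99.0, SMS at 80.4, ODC1 at 76.7 and AZIN1 at 41.1. The turnover genes were far lower in every group: SAT1 lay between 1.79 and 4.04 CPM per kb and PAOX at most at 0.113. AZIN2 lay between 0.0431 and 0.253 CPM per kb, below AZIN1 in every group. The lengths used cover all annotated exons, such as 3436 bases for OAZ1, 7671 for OAZ2 and 2498 for SAT1. The canonical transcripts of these have 1148, 1934 and 1049 bases. The order of genes with levels close to each other, such as ODC1, OAZ1 and SRM in NGP, therefore depends on the length used.

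**Figure D4:**
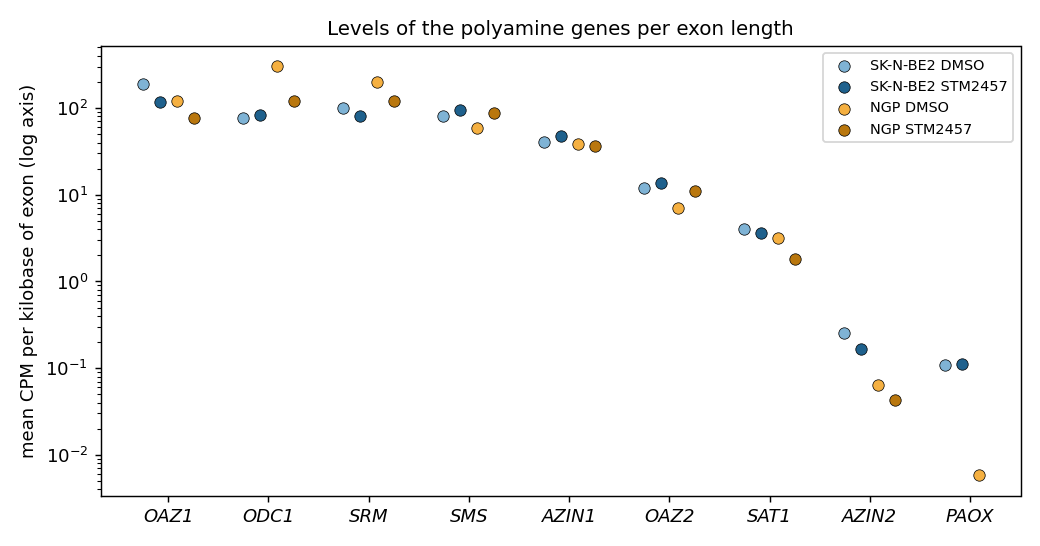
Level per exon length (CPM per kilobase, log axis) of the polyamine genes in the 4 groups, as mean of 3 replicates. ODC1, SRM, SMS and OAZ1 lie above AZIN1 in every group, SAT1, AZIN2 and PAOX lie at the bottom, and ODC1 in NGP with DMSO is the highest value at 302.6.

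Beyond these genes, 30 further genes of polyamine metabolism were examined in 6 lists, and 24 were tested in each line. In SK-N-BE2, 12 were called, 5 higher and 7 lower, and in NGP 8 were called, 2 higher and 6 lower. These are 50% and 33.3% of those tested, below the 54.7% and 41.7% called over all genes. The median log2 fold change of the 24 was -0.01 in SK-N-BE2 and -0.05 in NGP, against -0.02 and -0.03 over all genes tested. In the arginine and ornithine supply list, 2 of 3 genes tested passed in SK-N-BE2 and 3 of 3 in NGP, beside the same 54.7% and 41.7% of all genes. ARG2, mitochondrial arginase, which makes the ornithine that ODC1 uses, was at 28.9 to 35.3 CPM with DMSO and 8.46 to 11.1 CPM with STM2457 in SK-N-BE2. In NGP it was at 64.7 to 72.8 CPM with DMSO and 6.17 to 6.76 CPM with STM2457. The groups stood far apart in both lines, at log2 fold changes of -1.74 ± 0.13 (SE, adjusted p 1.74e-07 in edgeR) and -3.42 ± 0.11 (SE, adjusted p 1.48e-06 in edgeR), a difference of 1.69 ± 0.17 (SE, adjusted p 9.07e-06 in edgeR). OAT, which converts ornithine in the mitochondrion, was called higher in both lines (0.29 and 0.41, edgeR adjusted p 0.00713 and 0.0112). ARG1, liver-type arginase, went from 14 to 55 reads over the NGP groups (log2 fold change 2.00 ± 0.54 SE, adjusted p 0.0171 in edgeR), a call lost without NGP DMSO replicate 3 or STM2457 replicate 3 (0.0572 and 0.0707).

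Among the other synthesis, turnover and antizyme genes, 3 of 4 tested were called in SK-N-BE2 and 2 of 5 in NGP, all lower. Over all genes 27.8% and 22.2% were called lower, and 54.7% and 41.7% in either direction, so the NGP share of 40% is near background. SMOX, the oxidase that turns spermine back into spermidine, was at 12.9 to 17.6 CPM with DMSO and 4.78 to 5.86 CPM with STM2457 in SK-N-BE2 (a log2 change of -1.55 ± 0.15 SE, adjusted p 1.58e-06 in edgeR). In NGP it was at 15.2 to 22.6 and 10.5 to 10.98 CPM (-0.79 ± 0.16 SE, adjusted p 0.00463 in edgeR). SMOX was thus lower beside the higher SMS in both lines, and no group overlapped. The difference in its response was -0.74 ± 0.23 (SE, adjusted p 0.0227 in edgeR), lost without SK-N-BE2 STM2457 replicate 1 or 3 or NGP DMSO replicate 3 (up to 0.0614). SATL1, a homologue of SAT1, was lower in both lines (-1.24 and -0.89, edgeR adjusted p 0.00176 and 0.00768).

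Hypusination attaches part of spermidine to the translation factor eIF5A. Of its 4 genes, 0 were called in SK-N-BE2 by edgeR, and 0 had an unadjusted p under 0.05, where 54.7% of all genes were called. In NGP, where 41.7% of all genes were called, 1 was, DOHH, the enzyme of the last step, at -1.30 ± 0.27 (SE, adjusted p 0.00596 in edgeR). DHPS was higher in NGP without overlap of the groups, but it just missed the threshold (0.82 ± 0.29 SE, adjusted p 0.0504 in edgeR). An unadjusted p under 0.05 was reached by 2 of the 4 genes there. In the list for methionine salvage, which recovers the by-product of SRM and SMS, 2 of 5 were called in SK-N-BE2, both higher. In NGP 0 of 5 were called, although 2 had an unadjusted p under 0.05. Both shares are below the 54.7% and 41.7% of all genes.

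Of the transport genes, 3 of 6 tested were called in SK-N-BE2, 1 higher and 2 lower, and 1 of 5 in NGP, lower. These shares of 50% and 20% are below the 54.7% and 41.7% of all genes. SLC3A2, an amino acid transporter subunit also linked to polyamine export, had log2 fold changes of -2.49 ± 0.12 (SE, adjusted p 3.80e-09 in edgeR) in SK-N-BE2 and -1.71 ± 0.13 (SE, adjusted p 3.39e-05 in edgeR) in NGP. ATP13A4, a polyamine-transporting ATPase, had 46 reads with DMSO and 14 with STM2457 in SK-N-BE2 (-1.72 ± 0.67 SE, adjusted p 0.0434 in edgeR). That call was lost in 8 of its 12 alternatives, among them without any SK-N-BE2 DMSO replicate and without STM2457 replicate 1 or 2 (up to 0.155), and the value was -2.89 without STM2457 replicate 3 (0.0129). MAT2A makes S-adenosylmethionine, the source of the aminopropyl groups that SRM and SMS add, and of methyl groups. It had log2 fold changes of -2.21 ± 0.10 (SE, adjusted p 3.08e-09 in edgeR) in SK-N-BE2 and -0.41 ± 0.11 (SE, adjusted p 0.0206 in edgeR) in NGP. MAT2B, from the same list, went the other way in SK-N-BE2 (0.68 ± 0.09 SE, adjusted p 2.97e-05 in edgeR). In NGP MAT2B was not called (0.04, edgeR adjusted p 0.754).

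**Figure D5:**
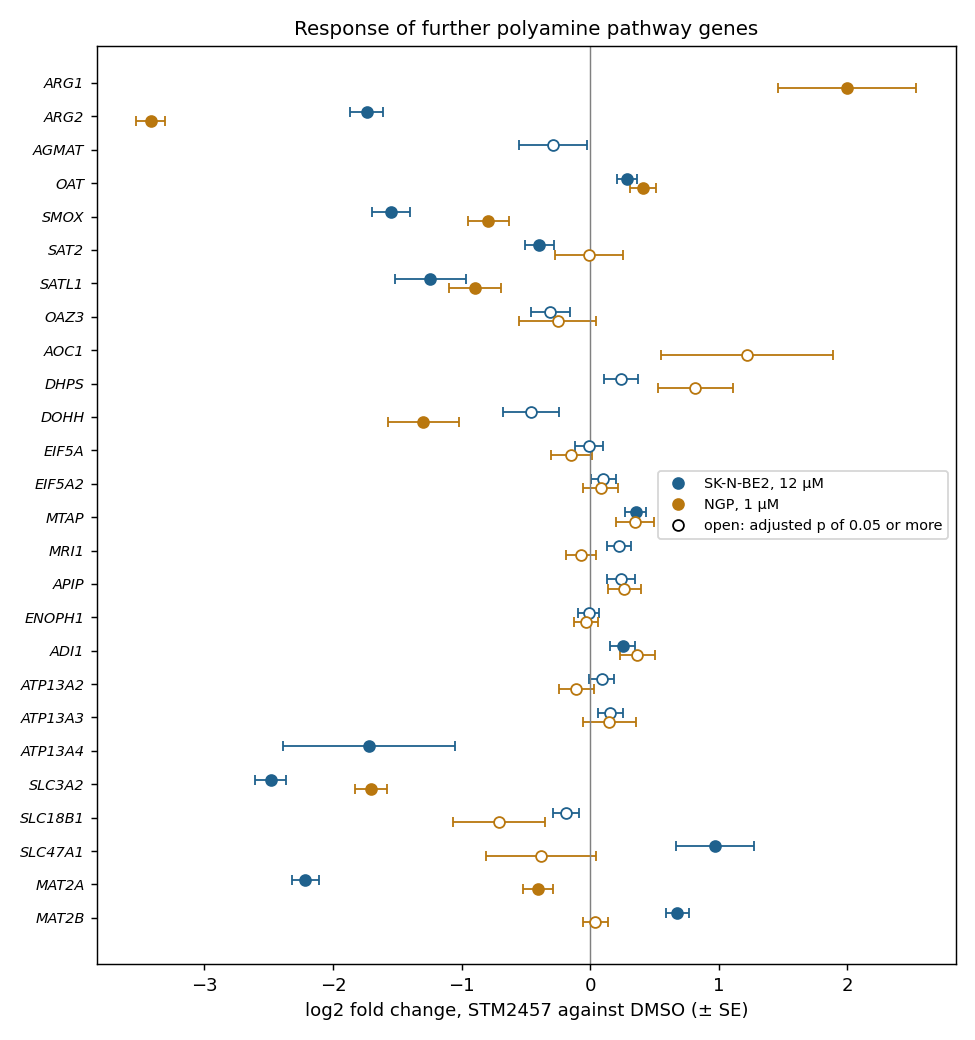
Log2 fold change with STM2457 against DMSO (horizontal axis) of the further polyamine pathway genes tested, grouped by list, in SK-N-BE2 and NGP, with bars of ± 1 SE from the edgeR fits and open points where the adjusted p was 0.05 or more. ARG2, SMOX, SLC3A2 and SATL1 lie below 0 in both lines, and MAT2A lies far lower in SK-N-BE2.

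Genes with a pattern most like that of ODC1 were found by the root mean square difference of log2 CPM over the 12 libraries, after centring each gene, among 9784 others whose mean reached 10 CPM. EFNB3, ZNF853 and GPR153 were nearest to ODC1, at 0.200, 0.218 and 0.222. EFNB3 went from 44.9 to 16.8 CPM in NGP and from 10.8 to 14.6 CPM in SK-N-BE2, group means with DMSO and STM2457. For SAT1 the nearest were DRAM2, ITPKC and CIAO2B, at 0.136, 0.156 and 0.184. The 12 libraries compared share line and file folder in groups of 6, so the points are not independent.

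Since STM2457 acts on the enzyme that writes m6A, the transcripts were searched on the sense strand for GGACT, a common form of the sequence in which m6A is written. The canonical GENCODE 44 transcripts of ODC1, SMS and OAZ1 held 0 matches, whereas 91.6% of 14411 tested genes held at least 1, at a median of 0.931 per kb. SRM held 1, SAT1 2, AZIN1 3, PAOX and OAZ2 4 each and AZIN2 7. SAT1 and OAZ2 had densities of 1.91 and 2.07 per kb. The match nearest the stop codon is shown for SAT1, SRM and OAZ2, with GGACT in capitals, because these are the genes called in NGP that hold it.
SAT1, in the coding part: attgtatcttgaGGACTtcttcgtgatgag
SRM, after the stop codon: gccctgctgggcGGACTgtctgtgtgtctg
OAZ2, ending in the stop codon: cttgtccgatgaGGACTaatagtcatagag
In NGP, SAT1 and SRM were lower with STM2457 and OAZ2 higher, and of the genes without a match ODC1 and OAZ1 were lower and SMS higher. Methylation was not measured in these libraries, and other forms of the sequence were not searched.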

How the data were processed

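The deposited values are raw counts. Per the file headers, the authors made them with featureCounts 2.0.5 over exons of GENCODE 33 protein-coding genes, with no strand option and without multi-mapping reads. Pairs were not counted as units, so a fragment can add up to 2 reads and counting intervals are too narrow. Per the submitters' processing notes, HISAT2 2.1.0, Trimmomatic 0.36, FastQC 0.11.5 and Subread 1.5.3 were used on GRCh38. The deposited exon lengths served for values per kb. The 6 libraries of a line were fitted apart from the other line by edgeR 4.0.16 under R 4.3.3 (quasi-likelihood test, TMM scaling, filterByExpr at a minimum count of 10). The difference between responses and the DMSO comparison used 4 group means over all 12 libraries. CPM used TMM factors of all libraries, and SE came from the fold change and its F statistic. The members and lists were chosen with earlier results of these data known. All 9 polyamine genes are named, with up to 5 called further genes per line by absolute fold change, and 3 nearest genes for each gene whose pattern was matched. Genes named in a list beyond these (OAT, DHPS and MAT2B) were chosen after their values were seen. The likeness measure added 0.5 to CPM. Alternatives were DESeq2 1.42.0, other scaling and filters, a joint fit, each library left out and a replicate block, and, after seeing the data, counts halved and rounded up and the ratio of SMS to SRM. Fits were tested on simulated data in which a far smaller share of genes changed than was called here. That test therefore cannot check scaling or error rates where so many genes change. Same-numbered replicates had deviations correlated over 0.1 in 1 of 3 pairs in each line and 0 of 3 between lines. Different-numbered pairs ranged as widely, up to 0.40 in SK-N-BE2. With 3 replicates this check cannot decide whether the numbers pair samples, and the labels do not state it. Some results of the marker lists are not reported here.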

Additional observations from a re-analysis of the deposited data

Results flagged for a closer look

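By the edgeR test of the difference (SK-N-BE2 minus NGP, log2), the response to STM2457 differed between the lines for 2 of the polyamine genes. It also differed for METTL3 and for 5 of the 26 further pathway genes tested, 19.2% beside 30.9% of all genes. Line, dose and any difference in sequencing run cannot be told apart in each of these. ODC1 differed by 1.44, with a fall in NGP and no call in SK-N-BE2. OAZ2 differed by -0.45, with the larger rise in NGP. ARG2 differed by 1.69, with the larger fall in NGP. MAT2A differed by -1.80, SLC3A2 by -0.77 and SMOX by -0.74, each with the larger fall in SK-N-BE2. MAT2B differed by 0.65, with a rise in SK-N-BE2 and no call in NGP. METTL3 differed by -0.39, with the larger rise in NGP, and this call was lost in 9 of 19 alternatives: without the filter on low counts, with the replicate block, and without SK-N-BE2 DMSO replicate 1, any SK-N-BE2 STM2457 replicate, NGP DMSO replicate 3 or NGP STM2457 replicate 1 or 3 (edgeR adjusted p up to 0.0771).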

How the results depend on the processing

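The falls of ODC1, SRM and SAT1 and the rises of SMS and OAZ2 in NGP kept direction and call in every alternative run. So did the fall of OAZ1 in SK-N-BE2 and the ODC1 difference between lines. In SK-N-BE2, 4 polyamine genes were called, 2 in the joint fit of all 12 libraries and 2 to 5 when a library was left out. In NGP, 6 were called, and 5 to 7 when a library was left out. For the difference, 2 were called, 4 with DESeq2 and 1 to 4 when a library was left out, the highest count without NGP DMSO replicate 1. For the DMSO comparison, 7 were called, 7 to 8 when a library was left out and 6 to 8 over all 20 alternatives. With the replicate block the counts were 4, 6, 2 and 7, unchanged, and the block ended the METTL3 difference call (edgeR adjusted p 0.0649). Directions turned only for values that were not called: PAOX in SK-N-BE2 (-0.037 with upper-quartile scaling, -0.15 to 0.27 when a library was left out), ODC1 in SK-N-BE2 (-0.028 to 0.26), MYCN in NGP (-0.0017 without the filter and -0.0010 with the replicate block, -0.056 to 0.060 when a library was left out) and AZIN1 between the DMSO groups (-0.0020 to 0.16). Among differences they were AZIN2 (0.011 with the block, -0.26 to 0.43 when a library was left out), OAZ1 (0.0094 without the filter, -0.28 to 0.15) and MYCN (-0.15 to 0.0021). The causes were not tested. PAOX and ARG1 are limited by depth, with at most 55 reads in a group.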
